A study of Rattus norvegicus with 10 samples.

Results

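The lyp mutation was present on both rat backgrounds of the study, and the genes described here are those whose level differed the same way with lyp on both. Of the 10 arrays of the series, 8 entered the comparison, 4 from islets with lyp and 4 from islets without it. For each probe set the difference with lyp was the mean of JBlyp/lyp minus JB and F344lyp minus F344. Each array with lyp was thus set against the background that its strain name gives. All 31042 probe sets other than the Affymetrix controls were measured in this way. Values are log2 intensities, and every difference is on the log2 scale with its standard error (SE).

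The study asked whether islets of the BioBreeding (BB) rat, a model of autoimmune diabetes, handle oxidative stress differently from islets of other rats. JBlyp/lyp rats are diabetes prone and homozygous for the mutation at the lyp locus, and JB rats lack it and are described as diabetes resistant but inducible. F344lyp rats carry lyp on the F344 background and F344 rats do not, and both are labelled healthy. DR+/+ rats, inducible and without the mutation, lie outside the comparison. Every group had 2 arrays of RNA from pancreatic islets at 40 days of age. The protocols describe fasted male animals, collagenase digestion and a density gradient. The growth protocol derives JBlyp/lyp and DR+/+ animals from DRlyp/+ parents, and the labels give no relation between JB and DR, which leaves the shared background of JB and JBlyp/lyp resting on the strain names. The F344lyp genotype is written F344lyp/lyp in the design text. Replicates are labelled biological, with no word on whether islets of several animals were pooled, and p-values therefore cover only the spread seen between these arrays.

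The lyp locus takes its name from lymphopenia. The mutation disrupts Gimap5, a GTPase of the immunity-associated protein family that T cells need to survive after they leave the thymus, and lyp homozygous rats have few circulating T cells. On the BB background lyp is required for spontaneous diabetes, while on the F344 background it gives lymphopenia without diabetes. In whole islet RNA, fewer cells of a type and less RNA per cell cannot be told apart.

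The arrays carried the tissue they are labelled with. The insulin genes Ins1 and Ins2 were at 13.54 to 14.27 in the 8 arrays, far above the array medians of 5.39 to 5.44, and replicates of a group correlated at 0.981 to 0.997. Acinar markers were present too, and their list mean was 9.62 and 9.06 in JBlyp/lyp islets, against 9.72 and 9.37 in JB islets, and 11.98 and 12.19 in F344lyp islets, against 11.23 and 11.02 in F344 islets. It was thus higher with lyp in F344 only. The difference between the 3′ and 5′ Gapdh control probe sets, a measure of RNA integrity, was 2.75 and 2.97 in JBlyp/lyp islets, against 3.71 and 3.31 in JB islets, and 2.20 and 2.19 in F344lyp islets, against 2.43 and 2.35 in F344 islets. It was lower with lyp on both backgrounds without overlap. The like difference for actin was 3.43 and 3.30 in JBlyp/lyp islets, against 4.17 and 3.40 in JB islets, and 2.72 and 2.77 in F344lyp islets, against 3.06 and 2.95 in F344 islets, and overlapped in JB. When the Gapdh difference was a covariate, limma called 0 probe sets and 1334 had an unadjusted p under 0.05. The difference of Reg3a was then 2.13, of Reg1a 1.07, of Cd3d -0.94, of Jun -0.83, of Hspa1a -1.30, of Ddit3 -0.58 and of Gimap5 -0.12. Its part in the differences below was not tested beyond this covariate.

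With lyp, 155 probe sets were higher and 88 lower on average over both backgrounds (limma with Benjamini-Hochberg adjustment, adjusted p under 0.05, n = 4 and 4 arrays), which is 0.499% and 0.283% of those tested. Rises came mostly from F344: the median of the called rises was 0.30 in JB and 1.37 in F344, and for 54 of the 155 the lyp effects in JB and F344 differed in a test of that difference. Falls were more even, with medians of -0.69 in JB and -0.84 in F344, and for 4 of the 88 the effects differed. The rise or fall was visible on each background, with both lyp arrays beyond both arrays without lyp in JB and again in F344, for 89 of the higher and 80 of the lower probe sets (0.287% and 0.258% of those tested). Tested alone, JB gave 1 call (0.00322%, and 0.00703% of genes), and F344 gave 349 rises (1.12%) and 119 falls (0.383%), or 1.58% and 0.317% of genes. The 2 effects differed for 88 probe sets (0.283%, and 0.478% of genes). Such non-overlap alone was seen for 5.42% of all probe sets upward and 6.27% downward. All of these 169 kept their sign under every alternative processing in which they were measured. For fits without single arrays this was fixed in advance by the choice for non-overlap.

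**Figure D1:**
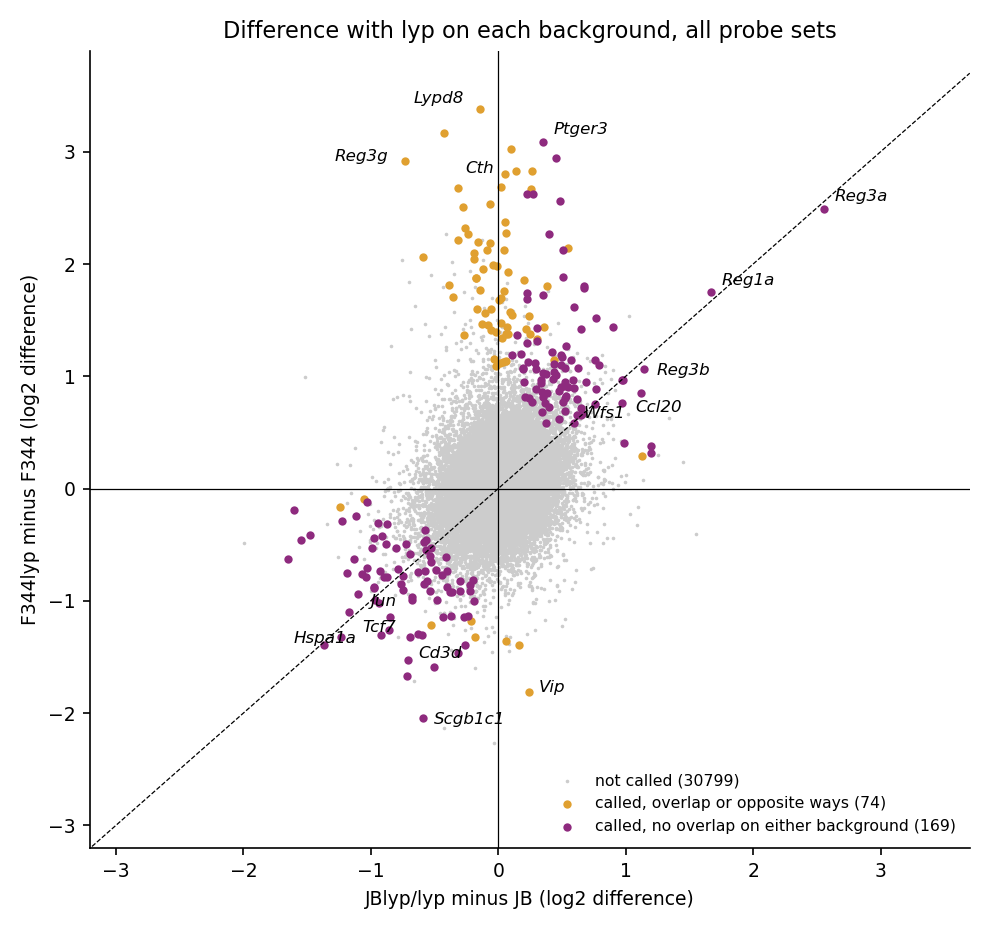
Log2 difference with lyp in JB (horizontal axis) against that in F344 (vertical axis) for all 31042 probe sets, with the 243 called ones coloured by whether both backgrounds moved the same way without overlap. Points near the dashed line of equal effects include Reg3a, Reg1a, Reg3b, Jun, Tcf7 and Wfs1, while the upper group near 0 on the horizontal axis, such as Lypd8 and Cth, holds rises seen in F344.

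When the disagreement between the backgrounds was put into the error, with 1 lyp term and 1 background term on 8 arrays, 4 probe sets were called higher and 15 lower, and all 19 were among the 169. The 4 rises were Reg3a, Reg3b, Wfs1 and Slc11a2. The falls with 1 gene symbol were Jun with 3 probe sets, Dnajb1, Hspa1a, Cd3d, Cd247, Tcf7 and Rgs2, and 6 had no single symbol. Slc11a2 and Cd247, and the deeper of the 2 Dnajb1 probe sets, are not the brightest probe set of their gene and were picked out after their values were seen. Requiring instead that each background pass by itself, with the larger of its 2 p-values adjusted over all probe sets, left 1, that of Reg3a (adjusted p = 0.0226, 0.00322% of probe sets and 0.00703% of genes), and 469 had an unadjusted p under 0.05. That call ended without any 1 of the 4 F344 and F344lyp arrays or of the 2 JB arrays, where 0 passed. Of the 169, 11 higher and 7 lower were called without each of the 8 arrays in turn. They include Reg3a, Cd3d, Hspa1a, the deeper Dnajb1 probe set and Scgb1c1, and several rises that are larger in F344.

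Gimap5 itself was lower in the arrays with lyp, at 5.95 and 5.65 in JBlyp/lyp islets, against 7.05 and 5.95 in JB islets, and 5.96 and 6.02 in F344lyp islets, against 7.03 and 6.82 in F344 islets. The mean difference was -0.82 (SE 0.21, adjusted p = 0.109) and was not called. In F344 the groups lay clearly apart, while JB replicate 2, at 5.954, lay just above the higher JBlyp/lyp array, at 5.945, and close to the F344lyp arrays. With JB replicate 2 left out, which removes the array nearest to the lyp arrays, the difference was -1.09 (adjusted p = 0.0112), and with any other of the 8 left out it was not called (-0.55 to -0.89, adjusted p = 0.095 to 0.364). Cd3d in JB replicate 2, at 5.66, lay above both JBlyp/lyp arrays. The probe set reports transcript level and not the mutation. DR+/+ islets had 8.22 and 8.41, above all 8 arrays.

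The other measured Gimap genes encode GTPases of the same family, which lymphocytes express. Gimap7 was at 3.60 and 3.67 in JBlyp/lyp islets, against 4.48 and 3.73 in JB islets, and 4.01 and 3.99 in F344lyp islets, against 4.78 and 4.89 in F344 islets, a difference of -0.65 (SE 0.15, adjusted p = 0.0894). It was called without JB replicate 2, again the JB array nearest to JBlyp/lyp (adjusted p = 0.0163), and not without any other of the 8 (adjusted p = 0.0852 to 0.342). The brighter Gimap1 probe set was at -0.46 (SE 0.12, adjusted p = 0.123), and the dimmer one at -0.10 (adjusted p = 0.688). That dimmer probe set, Gimap4 at -0.21 and Gimap6 at -0.12 overlapped on at least 1 background. Of 5 Gimap genes 0 were called by limma and 3 had an unadjusted p under 0.05. All 5 were below 0 (median -0.46), against 6259 of all 14217 genes.

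The largest shared rise was in the regenerating genes, secreted lectins that the exocrine pancreas and gut make in injury and inflammation. Reg3a, known in rat as pancreatitis-associated protein 2, was at 7.45 and 6.92 in JBlyp/lyp islets, against 4.47 and 4.79 in JB islets, and 12.39 and 12.70 in F344lyp islets, against 10.28 and 9.84 in F344 islets. It rose by 2.52 or 5.74-fold (SE 0.16, adjusted p = 0.000506), with 2.55 in JB and 2.49 in F344. Neither background overlapped, and the nearly equal differences stood on a far higher level in F344 rats. Reg3a was called without each array in turn (adjusted p at most 0.00787).

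Reg1a, the pancreatic stone protein, was at 10.08 and 8.71 in JBlyp/lyp islets, against 7.66 and 7.79 in JB islets, and 13.08 and 13.46 in F344lyp islets, against 11.68 and 11.36 in F344 islets, a rise of 1.71 (SE 0.25, adjusted p = 0.0196) that was 1.67 in JB and 1.75 in F344. The 2 JBlyp/lyp arrays differ from each other by more than 1, and both lie above JB. Reg3b, pancreatitis-associated protein 1, was at 8.55 and 8.32 in JBlyp/lyp islets, against 7.20 and 7.37 in JB islets, and 12.66 and 13.05 in F344lyp islets, against 11.86 and 11.72 in F344 islets, and rose by 1.11 (SE 0.14, adjusted p = 0.0101). Reg3g, the fourth measured member, did not follow: it was at 4.26 and 4.05 in JBlyp/lyp islets, against 4.91 and 4.86 in JB islets, and 8.16 and 8.33 in F344lyp islets, against 5.47 and 5.17 in F344 islets. Its difference was -0.73 in JB and 2.92 in F344, and these differed from each other (adjusted p of the difference = 0.000317). All 4 measured members of 6 were thus called, against 0.696% of all genes called higher, 3 of them without overlap on either background (6.37% of all genes upward). Without F344 replicate 1, F344 replicate 2 or F344lyp replicate 2 the calls of Reg1a (adjusted p = 0.0979, 0.132 and 0.137) and Reg3b (adjusted p = 0.0638, 0.0888 and 0.0707) ended, and 2 members were called. Without F344lyp replicate 1 or JB replicate 1 that of Reg1a ended (adjusted p = 0.0577 and 0.0549). Acinar markers, which moved with these genes in F344, were not higher with lyp in JB, where all 33 measured acinar genes had a median of -0.22. With the acinar mean as a covariate Reg3a was called and Reg1a and Reg3b were not.

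The 4 genes lie next to each other on chromosome 4, 192 to 195 protein-coding genes from the Gimap cluster in RefSeq's order. The 150 bases before the annotated starts of the 3 that rose alike are shown because these neighbours moved together, from RefSeq build GRCr8. They are at chr4:112430247-112430396, plus strand for Reg3a, chr4:112419626-112419775, plus strand for Reg3b, and chr4:112450316-112450465, plus strand for Reg1a. Capitals mark TGCCCCTCC, the longest run that a search found in all 3.
Reg3a: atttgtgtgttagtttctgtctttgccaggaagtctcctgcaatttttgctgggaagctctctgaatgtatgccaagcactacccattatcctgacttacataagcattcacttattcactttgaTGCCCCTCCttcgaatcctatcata
Reg3b: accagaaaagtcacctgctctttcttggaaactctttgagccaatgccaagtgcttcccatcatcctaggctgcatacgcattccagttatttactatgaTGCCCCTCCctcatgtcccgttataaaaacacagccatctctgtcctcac
Reg1a: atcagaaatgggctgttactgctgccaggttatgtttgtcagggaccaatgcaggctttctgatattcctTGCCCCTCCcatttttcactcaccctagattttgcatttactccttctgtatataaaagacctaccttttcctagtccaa
The run of 9 bases was chosen for being shared, and 0.375% of 27457 promoter stretches of this length hold it on the same strand (0.783% on either strand). The Reg3g stretch does not hold it. A TATA box (TATAAA, either strand) lies within the 250 bases before the start of 3 of the 4 regenerating genes, against 13.1% of all genes. These matches describe the letters only.

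**Figure D2:**
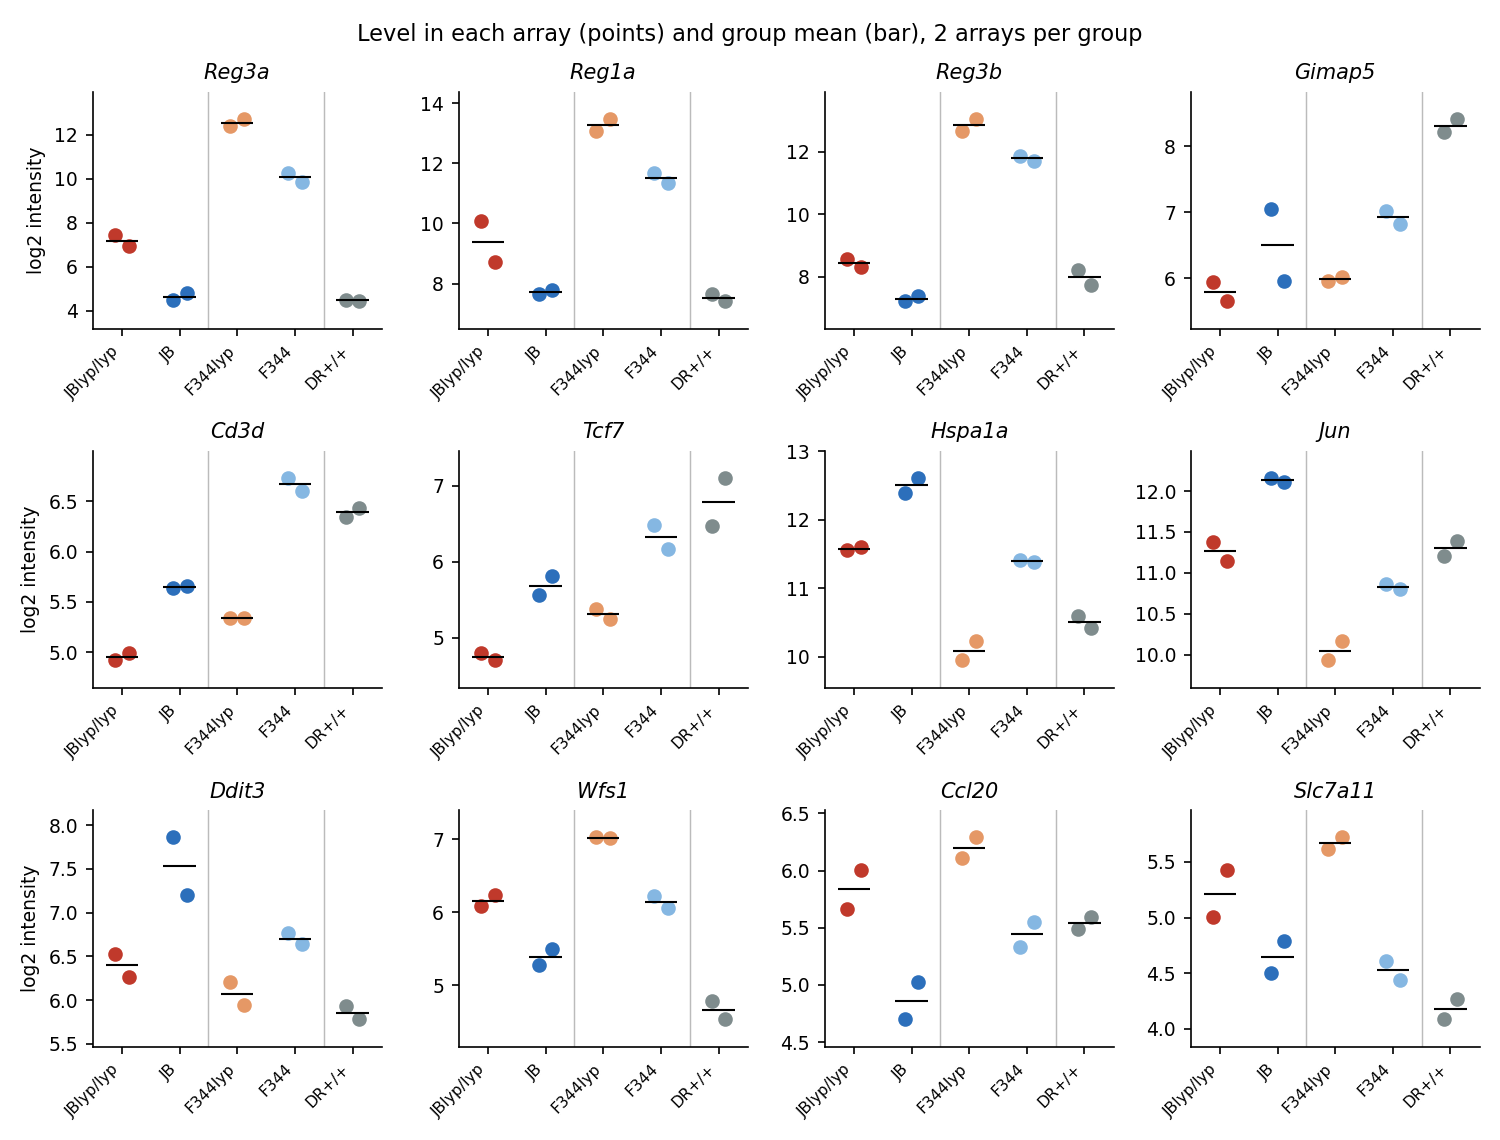
Log2 intensity of 12 genes in each array (points) with the mean of each group of 2 arrays (bars), JBlyp/lyp beside JB and F344lyp beside F344, with DR+/+ at the right. Reg3a, Reg1a, Reg3b, Wfs1, Ccl20 and Slc7a11 lie higher and Cd3d, Tcf7, Hspa1a, Jun and Ddit3 lower with lyp on both backgrounds without overlap, and JB replicate 2 of Gimap5 lies at 5.95.

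Several T cell genes fell with lyp on both backgrounds. Of 29 measured T cell markers 5 fell and 0 rose, against 0.232% of all genes called lower, and 23 were below 0 (median -0.23, against 0.029 over all genes). Without overlap on either background were 13 (4.76% of all genes downward). Cd3d, a chain of the CD3 complex of the T cell receptor, was at 4.92 and 4.99 in JBlyp/lyp islets, against 5.64 and 5.66 in JB islets, and 5.34 and 5.34 in F344lyp islets, against 6.73 and 6.61 in F344 islets. It fell by 1.01 (SE 0.09, adjusted p = 0.00131), with -0.69 in JB and -1.32 in F344. Each pair of arrays agreed closely and the groups lay apart, and the call held without each array in turn.

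Tcf7, a transcription factor of naive T cells, was at 4.81 and 4.71 in JBlyp/lyp islets, against 5.57 and 5.81 in JB islets, and 5.38 and 5.25 in F344lyp islets, against 6.48 and 6.17 in F344 islets. It fell by 0.97 (SE 0.15, adjusted p = 0.0227). Its fall was nearly equal on both backgrounds, -0.93 in JB and -1.02 in F344. Cd3e, another CD3 chain, was at 4.49 and 5.20 in JBlyp/lyp islets, against 5.59 and 5.83 in JB islets, and 5.37 and 4.90 in F344lyp islets, against 6.43 and 6.35 in F344 islets. It fell by 1.06 (SE 0.20, adjusted p = 0.0472). All 4 of its lyp arrays lay below the 4 others, while a second, dimmer Cd3e probe set was at -0.14 (adjusted p = 0.559). The co-receptor chain gene Cd8a fell by 0.75 and the kinase gene Prkcq, which acts downstream of the receptor, by 0.51. The brighter probe set of Cd247, the zeta chain, was at -0.16 and not called, and its other probe set fell by 0.995 (SE 0.14, adjusted p = 0.0175). Cd3g at -0.96 (adjusted p = 0.0754), Bcl11b at -0.77 and Lck at -0.43 were not called, and the helper T cell co-receptor gene Cd4 was at 0.12.

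Most of these calls need all arrays. The count of called T cell markers was 1 without either F344 array, 2 without either F344lyp array or JB replicate 1, 3 without JB replicate 2 or JBlyp/lyp replicate 1, and 5 without JBlyp/lyp replicate 2. Tcf7 was not called without either F344 array, either F344lyp array or JB replicate 2 (adjusted p = 0.0545 to 0.152), and Cd3e was called without 1 array only, JBlyp/lyp replicate 2.

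Fcmr and Glycam1 were among the largest falls by the naming rule. Fcmr, the receptor for immunoglobulin M, was at 6.54 and 6.07 in JBlyp/lyp islets, against 8.16 and 7.55 in JB islets, and 7.14 and 7.00 in F344lyp islets, against 7.68 and 7.38 in F344 islets. It fell by 1.0 (SE 0.16, adjusted p = 0.0317). Its fall was -1.55 in JB and -0.46 in F344, and the test of that difference did not pass (adjusted p = 0.372). Glycam1, a mucin-like ligand of L-selectin on the venules through which lymphocytes enter lymph nodes, was at 5.40 and 5.05 in JBlyp/lyp islets, against 6.33 and 6.19 in JB islets, and 5.93 and 5.54 in F344lyp islets, against 6.75 and 6.29 in F344 islets. It fell by 0.91 (SE 0.15, adjusted p = 0.0299). In both genes the groups lay apart on each background. Without F344 replicate 1, F344 replicate 2, F344lyp replicate 2 or JB replicate 1 neither was called (adjusted p = 0.064 to 0.19), nor was Fcmr without F344lyp replicate 1 (adjusted p = 0.078) or Glycam1 without JB replicate 2 (adjusted p = 0.0524). Among 15 B cell and plasma cell markers limma called 0 and 13 were below 0, with 6 at an unadjusted p under 0.05 (median -0.23). Among 18 markers of natural killer and cytotoxic cells 0 were called, 0 had an unadjusted p under 0.05, and the median was 0.04. Among 38 macrophage and dendritic cell markers 0 were called and 15 had an unadjusted p under 0.05 (2258 of all 14217 genes). Their median was 0.10, with -0.03 in JB and 0.27 in F344. Without overlap on either background 7 were higher and 4 lower (6.37% and 4.76% of all genes).

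**Figure D3:**
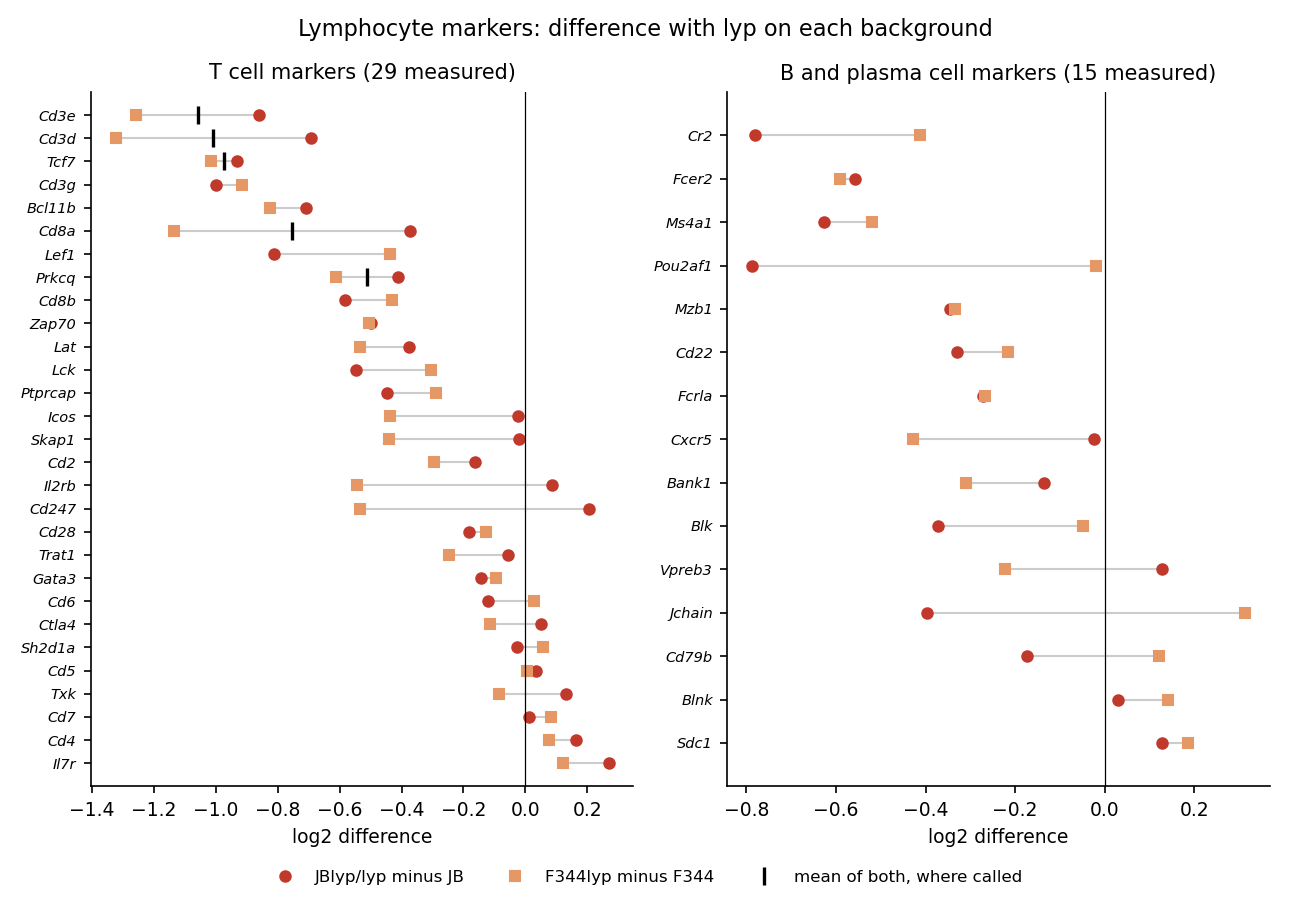
Log2 difference with lyp in JB (circles) and in F344 (squares) for each measured T cell marker and each B cell or plasma cell marker, with a bar at the mean of both where it was called. Of 29 T cell markers 23 have a mean below 0 and 5 were called, and of 15 B cell and plasma cell markers 13 lie below 0 and 0 were called.

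Several immediate early genes, which cells switch on within minutes of stimulation or stress, fell with lyp. Of 40 measured genes 5 fell and 0 rose (0.232% of all genes called lower), and 37 were below 0 (median -0.29). Lower without overlap on either background were 12 (4.76% of all genes). Jun, a subunit of the AP-1 transcription factor, was at 11.38 and 11.14 in JBlyp/lyp islets, against 12.15 and 12.11 in JB islets, and 9.93 and 10.16 in F344lyp islets, against 10.86 and 10.81 in F344 islets. It fell by 0.83 (SE 0.10, adjusted p = 0.00926), with -0.87 in JB and -0.79 in F344. Its other 2 probe sets fell by 0.92 and 0.98, so all 3 gave the same answer. Every lyp array lay below both arrays without lyp of its background. The JB level was far above the F344 level throughout.

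Atf3, a stress-induced transcription factor, was at 9.03 and 8.91 in JBlyp/lyp islets, against 10.05 and 9.84 in JB islets, and 8.44 and 8.72 in F344lyp islets, against 9.02 and 9.03 in F344 islets. It fell by 0.71 (SE 0.10, adjusted p = 0.0194). Ier2 fell by 0.68 and Csrnp1 by 0.64, the second about alike in JB (-0.70) and F344 (-0.58). The nuclear receptor gene Nr4a2 was at 6.54 and 6.69 in JBlyp/lyp islets, against 7.78 and 7.93 in JB islets, and 5.72 and 5.60 in F344lyp islets, against 5.61 and 6.05 in F344 islets, and its mean fall of 0.70 (SE 0.13, adjusted p = 0.0461) was -1.24 in JB and -0.17 in F344, where the arrays overlapped. Fosb at -1.05 (adjusted p = 0.0516), Egr1 at -0.70 (adjusted p = 0.0769) and Fos at -0.44 were not called. Rgs2, a regulator of G protein signalling outside the list, fell by 0.80 (SE 0.10, adjusted p = 0.00822), with -0.76 in JB and -0.85 in F344.

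Ddit3, the transcription factor CHOP of the unfolded protein response, was at 6.53 and 6.26 in JBlyp/lyp islets, against 7.86 and 7.20 in JB islets, and 6.21 and 5.94 in F344lyp islets, against 6.76 and 6.64 in F344 islets. It fell by 0.88 (SE 0.15, adjusted p = 0.0371). Of 34 genes of endoplasmic reticulum stress 1 rose, Wfs1, and 2 fell, Ddit3 and Atf3, against 0.696% of all genes called higher and 0.232% called lower. The list had a median of 0.09 that was -0.03 after quantile normalization. Among immediate early genes 0 were called without either F344 array, 1 without either F344lyp array, 3 without either JB array, 6 without JBlyp/lyp replicate 1 and 9 without JBlyp/lyp replicate 2. Jun was not called without F344 replicate 1 or F344 replicate 2 (adjusted p = 0.0835 and 0.0822). Atf3 and Ddit3 were not called without either F344 array, either F344lyp array or JB replicate 1 (adjusted p = 0.0531 to 0.201). Nr4a2 was called with JBlyp/lyp replicate 2 left out, and not with any other of the 8 left out (adjusted p = 0.069 to 0.224).

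Among heat shock genes a few inducible chaperones fell and the rest were not called. Hspa1a, an inducible Hsp70, was at 11.56 and 11.60 in JBlyp/lyp islets, against 12.39 and 12.60 in JB islets, and 9.95 and 10.23 in F344lyp islets, against 11.40 and 11.38 in F344 islets. It fell by 1.11 (SE 0.11, adjusted p = 0.0017), a call that held without each array. Hspa1a has a near-identical copy, Hspa1b, so which of them the probe set reads is uncertain. Dnajb1, an Hsp40 partner of Hsp70, had its brighter probe set at 11.29 and 11.93 in JBlyp/lyp islets, against 12.28 and 12.43 in JB islets, and 9.51 and 9.89 in F344lyp islets, against 10.67 and 10.53 in F344 islets, a fall of 0.82 (SE 0.15, adjusted p = 0.0461). Its other probe set was at 8.51 and 8.57 in JBlyp/lyp islets, against 9.85 and 9.71 in JB islets, and 6.84 and 7.03 in F344lyp islets, against 8.32 and 8.21 in F344 islets. It fell by 1.28 (SE 0.13, adjusted p = 0.00207). The arrays did not overlap on either background for either probe set. Hsph1, an Hsp110 nucleotide exchange factor, was at 10.56 and 10.67 in JBlyp/lyp islets, against 11.26 and 11.13 in JB islets, and 9.61 and 9.71 in F344lyp islets, against 10.19 and 10.09 in F344 islets. It fell by 0.53 (SE 0.09, adjusted p = 0.0377). In DR+/+ islets, outside the comparison, these 3 genes lay below both JBlyp/lyp arrays. Hspa1a was there at 10.60 and 10.42, the brighter Dnajb1 probe set at 10.28 and 10.15 and Hsph1 at 9.41 and 9.34. The co-chaperone gene Bag3, at -0.50, and Hspb1, at -0.56, were not called, while Hsp90ab1 was at 0.26, Stip1 at 0.35 and Fkbp4 at 0.49. Of 24 genes 3 fell and 0 rose, against 0.232% of all genes called lower, and the list's median of 0.04 was -0.05 after quantile normalization. With any 1 array other than JBlyp/lyp replicate 2 left out, 1 was called, and the calls of Hsph1 and of the brighter Dnajb1 probe set ended (adjusted p up to 0.208 for both).

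The promoter stretches of Hsph1 and Dnajb1 are shown because heat shock factor, the activator of inducible chaperones, binds a repeated motif whose core pair was searched as GAANNTTC (it reads the same on both strands). It is in capitals in the 150 bases before the annotated start, from RefSeq build GRCr8, at chr12:10427218-10427367, plus strand for Hsph1 and chr19:41431142-41431291, minus strand for Dnajb1.
Hsph1: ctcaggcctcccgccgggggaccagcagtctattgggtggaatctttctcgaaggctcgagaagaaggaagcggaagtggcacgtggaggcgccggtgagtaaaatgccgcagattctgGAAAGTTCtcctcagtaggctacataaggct
Dnajb1: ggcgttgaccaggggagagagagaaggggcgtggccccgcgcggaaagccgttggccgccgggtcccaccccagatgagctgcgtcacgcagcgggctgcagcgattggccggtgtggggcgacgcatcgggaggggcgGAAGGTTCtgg
The motif lies within the 250 bases before the start of 10 of 20 heat shock genes with a window and of 7.01% of all 27457 genes. The window of Hspa1a does not hold these letters. The list was written from what is known of these genes, so the share describes it and tests nothing.

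**Figure D4:**
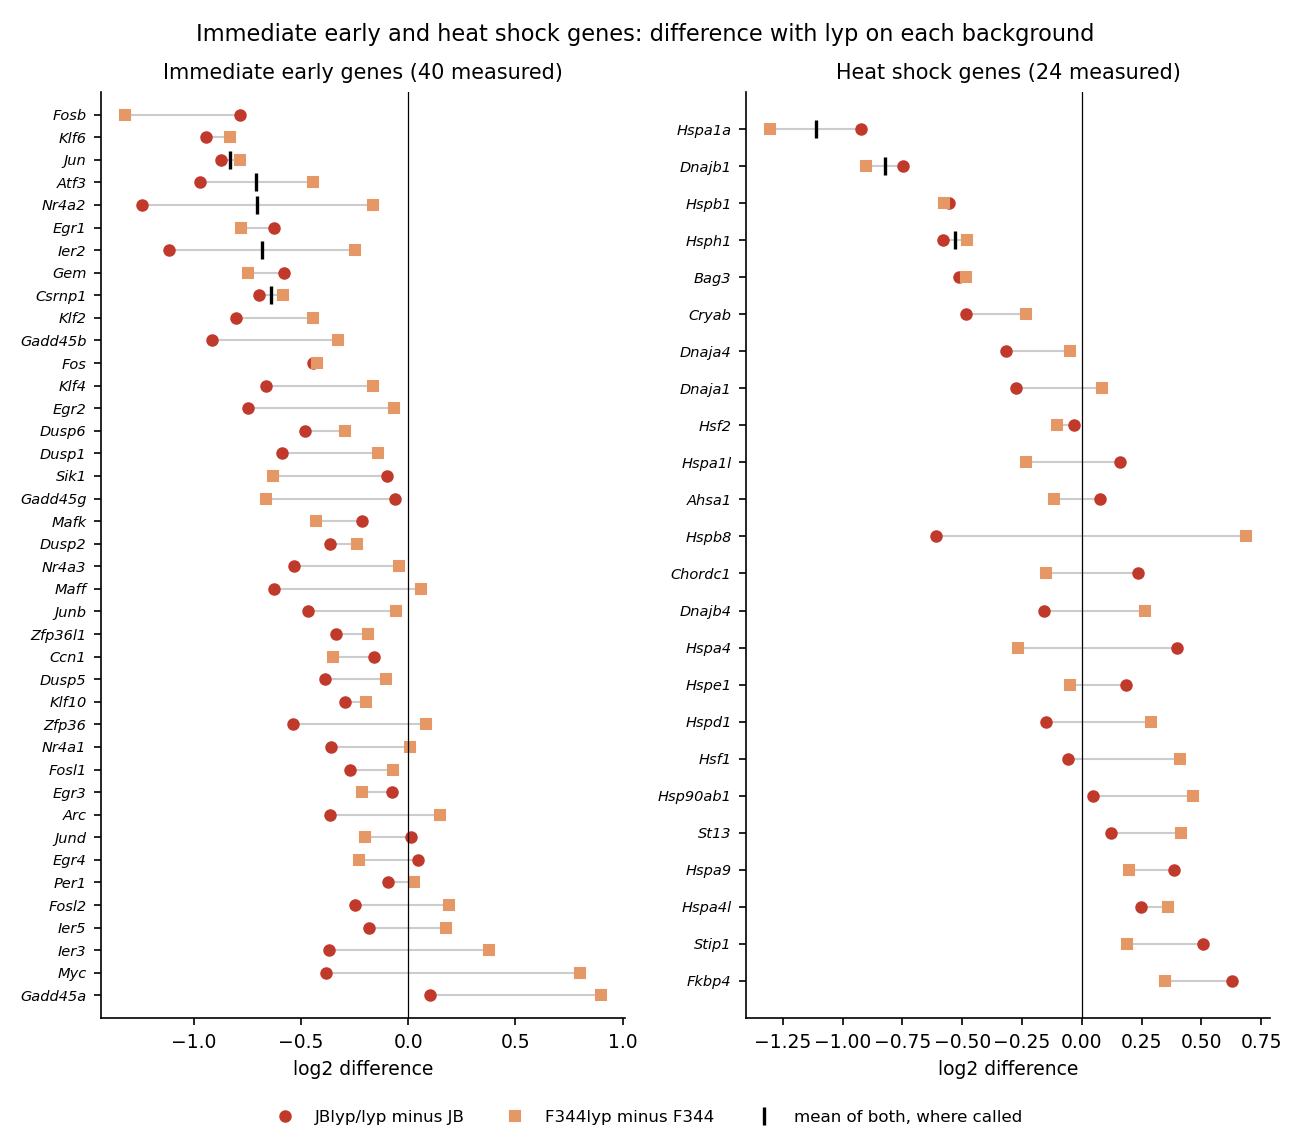
Log2 difference with lyp in JB (circles) and in F344 (squares) for each measured immediate early gene and heat shock gene, with a bar at the mean of both where it was called. Of 40 immediate early genes 37 lie below 0 on average, and among heat shock genes Hspa1a, Dnajb1 and Hsph1 were called lower while others lie on both sides of 0.

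Several rises outside the regenerating family were of like size on both backgrounds. Wfs1, wolframin, a membrane protein of the endoplasmic reticulum that beta cells need, was at 6.08 and 6.24 in JBlyp/lyp islets, against 5.28 and 5.50 in JB islets, and 7.03 and 7.02 in F344lyp islets, against 6.22 and 6.06 in F344 islets. It rose by 0.83 (SE 0.11, adjusted p = 0.0111). Ccl20, a chemokine that draws cells bearing CCR6, was at 5.66 and 6.01 in JBlyp/lyp islets, against 4.70 and 5.02 in JB islets, and 6.11 and 6.29 in F344lyp islets, against 5.33 and 5.55 in F344 islets. It rose by 0.87 (SE 0.12, adjusted p = 0.0175). Both genes were without overlap on each background. Without F344 replicate 1, F344 replicate 2 or F344lyp replicate 2 the call of Wfs1 (adjusted p = 0.0638 to 0.0997) and that of Ccl20 (adjusted p = 0.0888 to 0.127) ended.

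Slc7a11, the cystine importer that feeds glutathione synthesis, was at 5.00 and 5.42 in JBlyp/lyp islets, against 4.50 and 4.79 in JB islets, and 5.62 and 5.72 in F344lyp islets, against 4.61 and 4.44 in F344 islets. It rose by 0.86 (SE 0.13, adjusted p = 0.0187). Mgst3, a microsomal glutathione transferase, rose by 0.67 (SE 0.12, adjusted p = 0.0461), which was 0.53 in JB and 0.81 in F344. Slc7a11 was not called without either F344 array, either F344lyp array or JB replicate 1 (adjusted p = 0.0544 to 0.134), and Mgst3 not without any 1 array (adjusted p = 0.0514 to 0.225). Of 55 antioxidant genes 3 rose and 0 fell (0.696% of all genes called higher), Slc7a11 and the cysteine-making enzyme genes Cth and Cbs, with a list median of 0.07 that was -0.02 after quantile normalization. Cth was at 3.29 and 3.06 in JBlyp/lyp islets, against 3.12 and 2.96 in JB islets, and 8.15 and 8.57 in F344lyp islets, against 5.64 and 5.42 in F344 islets. Its difference was 0.14 in JB and 2.83 in F344 (adjusted p of the difference = 0.00232), so it was higher with lyp in F344 alone. Cbs, at 0.20 in JB and 1.86 in F344, overlapped in JB, and the test of its difference did not pass (adjusted p = 0.0602). One Slc11a2 probe set, for the iron transporter DMT1, was at 6.42 and 6.54 in JBlyp/lyp islets, against 5.35 and 5.65 in JB islets, and 8.11 and 8.29 in F344lyp islets, against 7.29 and 7.17 in F344 islets. It rose by 0.98 (SE 0.11, adjusted p = 0.0053), while the brighter Slc11a2 probe set was at 0.17 (adjusted p = 0.565).

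The remaining large rises were without overlap on both backgrounds but larger in F344. Ptger3, a prostaglandin E receptor, was at 5.20 and 4.96 in JBlyp/lyp islets, against 4.80 and 4.65 in JB islets, and 9.32 and 9.71 in F344lyp islets, against 6.38 and 6.48 in F344 islets. It rose by 1.72 (SE 0.12, adjusted p = 0.000506), with 0.36 in JB and 3.09 in F344 (adjusted p of the difference = 0.00213). Hsd3b1, a steroid dehydrogenase, was at 4.03 and 4.10 in JBlyp/lyp islets, against 3.82 and 3.77 in JB islets, and 6.40 and 6.61 in F344lyp islets, against 3.80 and 3.97 in F344 islets. It rose by 1.45 (SE 0.10, adjusted p = 0.000506), with 0.27 in JB. In both genes the JB groups lie close together and the F344 groups far apart. The mast cell protease genes Mcpt1l1 (1.70) and Cma1 (1.42), the intestinal calcium-binding protein gene S100g (1.52), the apolipoprotein gene Apoa1 (1.33), the gut mucin gene Muc2 (1.31) and the ribonuclease gene Rnase6 (1.19) had the same form. For each of these 6 the difference was 0.22 to 0.51 in JB and 1.88 to 2.94 in F344, and the 2 effects differed (adjusted p of the difference at most 0.0292). The lower JBlyp/lyp and higher JB array were 4.337 and 4.336 for Apoa1, 4.845 and 4.787 for Cma1 and 4.921 and 4.851 for S100g. They were 4.002 and 3.909 for Mcpt1l1, 5.478 and 5.179 for Rnase6 and 5.705 and 5.348 for Muc2. In JB alone limma called none of the 8 (adjusted p = 0.571 to 0.904). The mean difference of all 8 was called without each array.

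For Prap1, a proline-rich secreted protein, the rise was 1.23 (SE 0.21, adjusted p = 0.0357), and for the trypsin family gene Prss3bl1 it was 1.17 (SE 0.21, adjusted p = 0.0453). Prss3bl1 was at 7.00 and 7.80 in JBlyp/lyp islets, against 6.36 and 6.63 in JB islets, and 12.91 and 13.24 in F344lyp islets, against 11.69 and 11.60 in F344 islets. Their 2 effects did not pass the test of difference (adjusted p = 0.541 and 0.838), and neither was called without either F344 array, either F344lyp array or either JB array (adjusted p = 0.0574 to 0.219).

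Of the remaining falls by the naming rule, that of Scgb1c1, a small secreted secretoglobin, was the largest. It was at 4.86 and 4.75 in JBlyp/lyp islets, against 5.58 and 5.22 in JB islets, and 4.98 and 5.07 in F344lyp islets, against 7.20 and 6.94 in F344 islets. It fell by 1.32 (SE 0.11, adjusted p = 0.00131), with -0.59 in JB and -2.04 in F344 (adjusted p of the difference = 0.0377). Aqp1, a water channel of duct and vessel cells, fell by 0.83 (SE 0.11, adjusted p = 0.0124), with -0.26 in JB and -1.40 in F344, and its second probe set was at -0.28 (adjusted p = 0.290). Its call ended without either F344 array or F344lyp replicate 2 (adjusted p = 0.0562 to 0.102). A probe set assigned to the ribosomal protein gene Rps13 fell by 0.83 (SE 0.16, adjusted p = 0.0491). It read 4.70 to 6.54 over the 8 arrays, where the mean of 27 ribosomal protein genes was 10.7 to 11.6. It was not called without either F344 array, either F344lyp array, JB replicate 2 or JBlyp/lyp replicate 1 (adjusted p = 0.0698 to 0.24).

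Some called genes did not move the same way on both backgrounds, so their mean does not describe a shared effect. Lypd8, a protein of the intestinal surface, was at 3.57 and 3.54 in JBlyp/lyp islets, against 3.92 and 3.47 in JB islets, and 7.73 and 7.63 in F344lyp islets, against 4.44 and 4.16 in F344 islets, and Si, the brush border enzyme sucrase-isomaltase, at 3.22 and 3.04 in JBlyp/lyp islets, against 3.15 and 2.92 in JB islets, and 5.84 and 5.99 in F344lyp islets, against 2.88 and 2.90 in F344 islets. Both were higher with lyp in F344 and overlapped in JB. The connexin gene Gjb2 (-0.07 in JB and 2.53 in F344) and the galectin gene Lgals4 (0.05 and 2.37) had the same pattern. The gene listed as 1810009J06Rikl went opposite ways without overlap, at -0.43 in JB and 3.17 in F344. The neuropeptide gene Vip, at 8.21 and 7.89 in JBlyp/lyp islets, against 7.69 and 7.93 in JB islets, and 7.72 and 7.70 in F344lyp islets, against 9.51 and 9.54 in F344 islets, was lower with lyp in F344 alone (0.24 in JB and -1.82 in F344). The test of the difference passed for all 6 (adjusted p at most 0.00495).

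By list, genes called higher were acinar (4 of 33 rose), intestinal epithelium (6 of 23 rose), mast cell and eosinophil (2 of 21 rose), mesothelial (1 of 13 rose) and ductal (1 of 26 rose, 1 fell), with 0 falls in the first 4, against 0.696% of all genes called higher and 0.232% called lower. Among them were the acinar transcription factor gene Ptf1a (-0.28 in JB and 2.51 in F344), Tmed6 (-0.26 and 2.32), the zymogen granule gene Cuzd1 (-0.23 and 2.27), the mast cell carboxypeptidase gene Cpa3 (0.05 and 2.13), the trefoil factor gene Tff2 (-0.19 and 2.10) and the mesothelial gene Lrrn4 (-0.35 and 1.71). The adhesion gene Cdh17 was at 0.55 in JB and 2.15 in F344. Unlike Lgals4, given above, the gut markers Vil1 at 0.37 (adjusted p = 0.201), Cdx2 at -0.06 and Fabp1 at 0.06 were not called. Each of these 7 calls ended without F344 replicate 2 (adjusted p = 0.0655 to 0.231), 6 without F344lyp replicate 2, 5 without F344 replicate 1, 3 without F344lyp replicate 1, and that of Cdh17 without either JB array. Of the 21 mast cell and eosinophil genes 11 were above 0 and 10 below (median 0.003). Uncalled mast cell markers included Tpsab1 at 0.45 (adjusted p = 0.0932), Tpsb2 at 0.03, Kit at -0.02 and Ms4a2 at -0.04. The intestinal count was 3 without either F344 array or F344lyp replicate 1, 4 without F344lyp replicate 2 or JB replicate 1, and 7 without JBlyp/lyp replicate 2. Kif20b, a kinesin of cell division, was the 1 of 69 cell cycle genes that rose, against 0.696% of all genes called higher. It rose by 0.63 (SE 0.11, adjusted p = 0.0377), with 0.19 in JB and 1.07 in F344. These 2 effects did not pass the test of difference (adjusted p = 0.245). With single arrays left out, its call held only without F344lyp replicate 1 or JBlyp/lyp replicate 2. The list's median was -0.05 in JB and 0.25 in F344.

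The islet hormone genes did not change detectably. Ins1 was at 14.26 and 14.23 in JBlyp/lyp islets, against 14.20 and 14.19 in JB islets, and 14.14 and 14.12 in F344lyp islets, against 14.27 and 14.26 in F344 islets, a difference of -0.04 (SE 0.08, adjusted p = 0.87) that was 0.07 after quantile normalization. Ins2 was at -0.09 (SE 0.09, adjusted p = 0.698), the glucagon gene Gcg at 0.30 (SE 0.12, adjusted p = 0.29), the somatostatin gene Sst at 0.13 (SE 0.13, adjusted p = 0.68) and the pancreatic polypeptide gene Ppy at 0.15 (SE 0.21, adjusted p = 0.799). The unadjusted limma p of Gcg was 0.0347, with 0.35 in JB and 0.25 in F344, where its arrays overlapped. Among 34 beta cell markers limma called 0 and 4 had an unadjusted p under 0.05. Data were simulated with 1 spread per probe set for all groups and equal changes on both backgrounds. Of changes of 0.5, 25.6% were recovered there, and of changes of 1, 96.8%, so small changes would mostly be missed. The real groups differed in spread, with a median standard deviation between replicates of 0.078 in F344 and 0.154 in JBlyp/lyp. The recovered shares need not hold for them.

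The neighbours of the Gimap cluster on chromosome 4, where lyp lies, were examined by gene order. Of 48 measured genes within 50 protein-coding genes on either side 1 was called (2.08%, against 0.928% of all genes), and 10.4% did not overlap on either background, against 11.1% of all genes. It was Igf2bp3, an RNA-binding protein, at 0.02 in JB and 1.48 in F344, so it overlapped in JB, and its call ended without either F344 array, either F344lyp array or JB replicate 1 (adjusted p = 0.0841 to 0.193). Its other 2 probe sets were at -0.09 and -0.12 and were not called. Within 100 genes 4 of 104 were called (3.85%, against 0.928% of all genes), the others being Prss3bl1, 1810009J06Rikl and Aqp1. In that window 12.5% did not overlap on either background, against 11.1% of all genes. On chromosome 4 as a whole 14 of 849 genes were called (1.65%), the regenerating genes among them. The labels do not give how much of the chromosome is shared between the lyp strains.

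**Figure D5:**
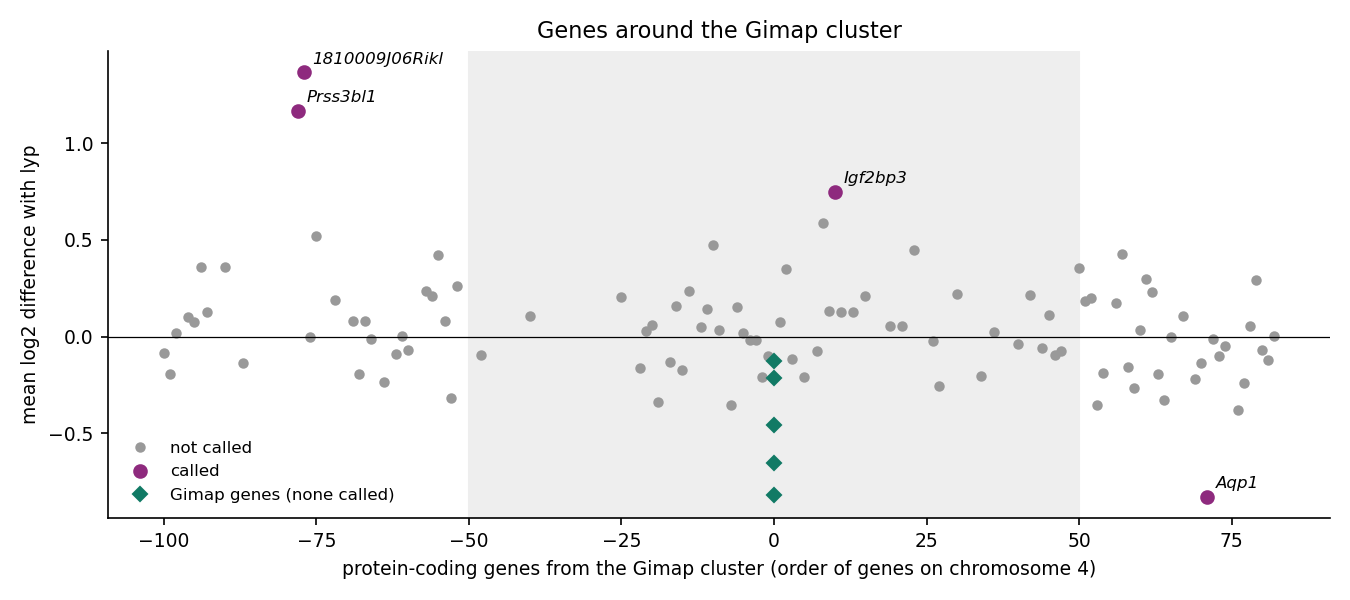
Mean log2 difference with lyp (vertical axis) of the measured genes within 100 protein-coding genes of the Gimap cluster, by their order on chromosome 4 (horizontal axis), with the 50 on either side shaded. The 5 Gimap genes lie between -0.82 and -0.12, and of the 4 called genes Igf2bp3 alone lies in the shaded part.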

How the data were processed

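Affymetrix expression arrays measured RNA of rat pancreatic islets in 5 groups of 2 arrays. The deposited values are log2 intensities per probe set, which the authors made, per the submitters' processing notes, using GCOS and RMA, with versions not given in the sources used here. Of 31099 probe sets 57 controls were set aside. For the other 31042, limma 3.58.1 estimated a mean for each group from all 10 arrays in R 4.3.3 (5 residual degrees of freedom, to which the prior added 4.72), and the lyp difference, the difference between its JB and F344 values and each of these alone were contrasts with moderated two-sided tests. DR+/+ arrays enter the spread only. Calls required an adjusted p under 0.05 (Benjamini-Hochberg, over all probe sets), without a minimum fold or brightness. Only 2 arrays a group limit the precision.

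The array annotation gave 1 symbol to 20826 probe sets, several to 436 and none to 9780, covering 14217 genes, and each gene is represented by its brightest probe set, by the mean of all arrays. RefSeq tables of GRCr8 gave gene order and promoter sequences, with an entry for 53 of 60 named genes. The members and the 35 gene lists were chosen with earlier results of these data known, so a list's count is not independent evidence. Named genes are the 12 largest rises and 12 largest falls among called genes without overlap on each background, up to 3 called members of each list, the 6 called genes with the smallest p for a difference between backgrounds, called Gimap neighbours, the Gimap genes and the hormone genes. Uncharacterised loci were passed over, and genes named outside this rule are said to be so or are list members. Replicate numbers were not used as pairs, because the labels name no shared animal, litter or day. The test was checked on simulated data in 5 runs, with 4.95% of calls false. That simulation gave every group the same spread and independent arrays, which the real arrays need not have. Python 3.11.15 with matplotlib 3.10.9 drew the figures.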

Additional observations from a re-analysis of the deposited data

Results flagged for a closer look

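For 23 of the named genes the difference with lyp was not of 1 size on the 2 backgrounds, by the test of the JB difference minus the F344 difference (limma with Benjamini-Hochberg adjustment over all probe sets). Among genes that moved the same way without overlap on each, that value was -2.73 for Ptger3, -2.49 for Mcpt1l1, -2.08 for S100g, -2.35 for Hsd3b1, -2.40 for Cma1, -1.87 for Apoa1, -1.62 for Muc2, -1.38 for Rnase6 and 1.46 for Scgb1c1. Among genes of the gut, mast cells, ducts and mesothelium that overlapped on a background or moved opposite ways it was -3.52 for Lypd8, -2.93 for Si, -2.60 for Gjb2, -2.32 for Lgals4, -2.08 for Cpa3, -2.29 for Tff2 and -2.06 for Lrrn4. For acinar and regenerating genes it was -2.79 for Ptf1a, -2.59 for Tmed6, -2.50 for Cuzd1 and -3.65 for Reg3g. It was -3.59 for 1810009J06Rikl, -2.60 for Gjb2, -2.69 for Cth and 2.05 for Vip. A negative value means a higher difference in F344 than in JB. The acinar list mean moved with lyp in F344 as well, and its part in these values was not tested beyond the covariate fit.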

How the results depend on the processing

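All 169 probe sets that were called and did not overlap kept their sign under each alternative that measured them, and their calls depended on the fit. The sign could change only with a covariate, quantile normalization or median centring. The choice for non-overlap fixes it when 1 array is left out, and the other fits leave the difference itself unchanged. Counts of probe sets called higher and lower, and of those also not overlapping on either background, were 155, 88, 89 and 80, and 0, 0, 0 and 0 with the Gapdh covariate (1334 at an unadjusted p under 0.05) or with no background term (1771). With the additive model they were 4, 15, 4 and 15, on the 8 arrays alone 80, 42, 43 and 40, with the replicate block 318, 168, 181 and 137, and with the acinar covariate 123, 136, 40 and 49. The block also gave 121 differences between backgrounds, 8 immediate early, 6 T cell and 7 intestinal calls. Deviations of same-numbered arrays correlated at 0.65 between JB and JBlyp/lyp, 0.03 between F344 and F344lyp and 0.20 to 0.24 in the other 4 pairs of groups, and 2 arrays a group cannot settle whether the numbers pair samples. With 1 array left out at a time they ranged over 26 to 272, 8 to 152, 12 to 211 and 8 to 144, lowest without an F344 array and highest without JBlyp/lyp replicate 2. The 88 differences between backgrounds became 7 with the Gapdh and 2 with the acinar covariate, and 18 to 130 without single arrays. The 1 probe set passing on both backgrounds became 0 with the Gapdh covariate, the acinar covariate, array weights or 8 arrays, and 0 to 2 without single arrays. The 1 called Gimap neighbour became 0 with the Gapdh covariate, the additive model, the dim filter, no background term or 8 arrays, 4 within 100 genes, and 0 to 1 without single arrays.

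The T cell count of 5 was 0 with the Gapdh covariate or no background term, 2 with the acinar covariate, the additive model or 8 arrays, 3 with the lowest 40% of probe sets left out or with means over a gene's probe sets, and 1 to 5 without single arrays. The immediate early count of 5 was 0, 0, 1 and 3 with the Gapdh covariate, no background term, the additive model and 8 arrays, 8 after quantile normalization, and 0 to 9 without single arrays. The heat shock count of 3 was 0 with the Gapdh covariate or no background term, 1 with the additive model or 8 arrays, and 1 to 3 without single arrays. The regenerating count of 4 was 0 with the Gapdh covariate or no background term, 2 with the acinar covariate or additive model, and 2 to 4 without single arrays. The intestinal count of 6 was 0 with the Gapdh covariate, the additive model or no background term, 3 with the dim filter, and 3 to 7 without single arrays. Genes not called turned sign: with the acinar covariate Gimap6 was at 0.13, Sst at -0.14 and Ppy at -0.46, Ins1 was at 0.0736 after quantile normalization, and Ppy was at -0.11 to 0.40 without single arrays. Gimap5 was called with the acinar covariate (adjusted p = 0.0412). The causes were not tested.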

Other observations

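Several lists with few or 0 called members had small median differences. Of 52 oxidative phosphorylation genes 46 were above 0 (median 0.15, against 0.029 over all genes, and 0.05 after quantile normalization), 7 were higher without overlap on either background (6.37% of all genes), and 8 had an unadjusted p under 0.05, a share like that of all genes (2258 of 14217). Of 29 endothelial markers 23 were below 0 (median -0.13), with 4 lower without overlap (4.76% of all genes). Of 24 nerve and Schwann cell markers 21 had a mean of both backgrounds below 0 (median -0.15). That list's median was 0.05 in JB and -0.20 in F344, so it did not fall on both. For 4 of the 24 the JB and F344 effects differed (0.478% of all genes), and 1, Vip, was called lower (0.232% of all genes). Sterol synthesis genes had 22 of 28 above 0 (median 0.16) and 8 at an unadjusted p under 0.05. The interferon response list had a median of 0.10 with 4 of 40 at an unadjusted p under 0.05.

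The DR+/+ arrays, which lack lyp, were compared by position only. Of the 89 probe sets higher with lyp on both backgrounds 70 had both DR+/+ arrays below both JBlyp/lyp arrays, and of the 80 lower ones 56 had both above. The like share over all probe sets was not counted. The JBlyp/lyp values also served to choose these probe sets, so the counts describe position and test nothing. Reg3a was at 4.50 and 4.42 in DR+/+ islets and Cd3d at 6.35 and 6.44, on the side of the arrays without lyp, whereas Ddit3, at 5.93 and 5.78, and Hspa1a, at 10.60 and 10.42, lay below both JBlyp/lyp arrays.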
